A study of Mus musculus with 18 samples.

Results

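The comparison of cKO with Ctrl tail tendon fibroblasts (TFs) in 1% O2 sets 3 libraries titled cKO against 3 titled Ctrl, 6 of the 18 RNA-seq libraries. The spread between replicates was estimated in a fit of 12 libraries, these 6 and the 6 of the same genotypes in 20% O2, and the calls depend on it. TFs crawled out of tail tendons of male and female mice aged 4 to 6 months into collagen gel, were passaged, and spent 4 days on culture plastic in 1% O2, in medium with 10% serum by the labels and less by the study's methods. Ctrl mice carried no Cre, and in cKO mice the promoter of *Scx*, a tendon transcription factor, drives Cre that deletes floxed *Hif1a*, so recombination depends on each cell having made Cre at some time. The RNA was polyadenylated and whole-culture, so fewer cells of a type and less RNA per cell cannot be told apart. The question was which genes differed between the genotypes under low oxygen, and it was described over autosomal genes because the sexes were unequal. By their *Xist* counts, Ctrl replicates 1 to 3 were a male, a female and a female culture, and cKO replicates 1 to 3 a female, a male and a male culture.

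HIF-1α, the protein of *Hif1a*, is the oxygen-regulated partner of ARNT (gene *Arnt*) in a transcription factor. In air it is hydroxylated by the EGLN enzymes, bound by VHL and degraded. Under low oxygen it is kept, binds short DNA motifs near its targets and raises genes for glycolysis, lactate export and blood vessel growth. Tendon is poor in vessels, and its fibroblasts build an extracellular matrix of collagen I fibrils whose assembly is tuned by small proteoglycans.

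Library totals were 34020745 to 39221066 counts in Ctrl, and 6857558, 35082090 and 39782214 counts in cKO replicates 1, 2 and 3. Taking 3 counts as the least a library can show, the floor was 0.437 CPM (counts scaled to library size) in cKO replicate 1 and at most 0.0882 CPM in the other 5, for counting error only. cKO replicate 1 is therefore the least precise library, and results are given with and without it. *Hif1a* itself was at 496, 370.2 and 410.2 CPM in the Ctrl libraries and 433, 402 and 509 CPM in the cKO libraries, a log2 fold change of 0.08 (SE 0.16, adjusted p in edgeR = 0.819). The groups overlapped, and since counts over a whole gene do not resolve a deleted exon, they do not check the genotype. The study's own qPCR, on RNA taken later in culture, found lower *Hif1a* expression in cKO TFs. Counts of the Cre transgene were 0, 2 and 3 in the cKO libraries and 0 in each Ctrl library. Below, "cKO" means the libraries labelled so. Principal components of the 500 most variable autosomal genes with a mean of at least 5 CPM put the Ctrl libraries at -13.25, -11.29 and -10.96 on the first axis (37.7% of the variance) and the cKO libraries at 17.91, 14.28 and 3.32. Mitochondrially encoded genes took 0.398% to 0.426% of counts in Ctrl and 0.754%, 0.668% and 0.534% in cKO replicates 1 to 3.

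Of 15850 genes tested, 6 were differentially expressed (0.0379%), meaning an edgeR p below 0.05 after Benjamini-Hochberg adjustment together with at least 1.5-fold change. All are autosomal (6 of 15262 autosomal genes, 0.0393%). The fit on the 6 libraries of 1% O2 alone called 0 genes in edgeR, with 1378 at an unadjusted p under 0.05 and the same fold change, so these calls rest on the spread shared with the 20% O2 cultures. In the fit of all 12, *Dcn*, *Serpine2*, *Efhd1* and *Gm10800* rose (0.0252% of genes) and *Ptgs2* and *Prkar2a* fell in cKO TFs (0.0126%). A wider set passed an unadjusted p under 0.05 with the same fold change, here called the unadjusted threshold. It held 1549 genes (9.77%), 1492 of them autosomal (9.78%), of which 416 were higher (2.73%) and 1076 lower (7.05%) in cKO TFs. The median log2 fold change of all autosomal genes was -0.0012. In 1804 autosomal genes (11.8%) all 3 cKO libraries were above all 3 Ctrl libraries, and in 2391 (15.7%) all were below. Without cKO replicate 1, 333 of 16211 genes of all chromosomes were higher (2.05%) and 657 lower (4.05%) at the unadjusted threshold, against 449 (2.83%) and 1100 (6.94%) with it. Of the 416 and 1076 autosomal genes, 209 and 511 passed again without it, and 413 and 1076 kept their sign. The lower genes were longer (median exonic length 7058 bases) and richer in G and C (51.9%) than the autosomal genes tested (3988 bases, 49.6%), and the higher genes were shorter (2240 bases, 47.5%). With offsets for GC content and length, 350 genes were higher and 682 lower. With sex as a term in the fit, 601 were higher and 859 lower, so that the higher genes made up 41.2% of the unadjusted set in place of 29.0%. Leaving out Ctrl replicate 2 gave 426 higher and 576 lower genes, and leaving out cKO replicate 3 gave 900 and 1344. With the sex term all 6 called genes were called again. With the offsets 5 were, and *Gm10800* had an adjusted p in edgeR of 0.0796. Many values below that the offsets or the sex term move by more than 1.5 times have the moved value beside them. A value without one is not thereby shown to be stable. The gene lists below are to be read against the autosomal 2.73% higher and 7.05% lower, and without cKO replicate 1 against 2.05% and 4.05% of all genes. The lists were chosen with results known, so no test was made on them and each count is a description.

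The number of called genes moved with single libraries. Without cKO replicate 1, edgeR called 6 genes (*Dcn*, *Efhd1*, *Gm10800*, *Serpine2*, *Lum* and *Pi16*), all higher. When any one of the other 5 libraries was left out it called 0, with 1002 to 2244 genes at the unadjusted threshold. DESeq2 on all the libraries called 288 genes, with 92 higher (0.677% of the 13591 genes given an adjusted p) and 196 lower (1.44%), and the 6 were among them. In simulated counts with 200 changed genes DESeq2 called 41 unchanged genes and edgeR 12, a limit on the DESeq2 calls given below. A fit restricted to autosomal genes called 11, which added *Lum*, *Igf1*, *Pi16*, *Casp12* and *Clcf1* to the 6.

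*Dcn* (ENSMUSG00000019929, chr10:97479609-97518143 on GRCm38, plus strand) encodes decorin, a small proteoglycan that coats collagen fibrils and binds TGF-β. It was at 113, 109.8 and 148 CPM in the Ctrl libraries and 435, 949 and 837 CPM in the cKO libraries. Every cKO library was above every Ctrl library, with cKO replicate 1 the lowest of the 3. The means were 124 ± 21.3 CPM in Ctrl and 740.3 ± 270.1 CPM in cKO TFs (SD, n = 3), a 5.98-fold difference with a log2 fold change of 2.58 (SE 0.29, adjusted p in edgeR = 0.0171) and of 2.87 without cKO replicate 1 (adjusted p in edgeR = 0.00154). *Efhd1* (ENSMUSG00000026255, chr1:87264363-87310839, plus strand), a calcium-binding protein of mitochondria, was at 2.13, 1.27 and 1.94 CPM in the Ctrl libraries and 5.62, 7.27 and 7.41 CPM in the cKO libraries. The groups did not overlap. Its log2 fold change was 1.94 (SE 0.26, adjusted p in edgeR = 0.0276) and 2.06 without cKO replicate 1.

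*Serpine2* (ENSMUSG00000026249, chr1:79794197-79861180, minus strand) encodes protease nexin-1, an inhibitor of thrombin, plasmin and plasminogen activators. Its libraries were tight, at 241, 266 and 244 CPM in the Ctrl libraries and 441, 478 and 437 CPM in the cKO libraries, and the lowest cKO library stood well clear of the highest Ctrl library. The log2 fold change was 0.85 (SE 0.10, adjusted p in edgeR = 0.0171), 1.81-fold, and 0.89 without cKO replicate 1. Its effect in 1% O2 was 0.63 larger on the log2 scale than in 20% O2 (SE 0.14), a difference that did not pass adjustment over all genes (adjusted p in edgeR = 0.9999). *Gm10800* (ENSMUSG00000075014, chr2:98666547-98667301, minus strand) is a predicted gene without an assigned function. It was counted 12, 28 and 22 times in Ctrl and 59, 597 and 703 times in cKO, which is 0.336, 0.847 and 0.576 CPM in the Ctrl libraries and 8.5, 17.4 and 17.8 CPM in the cKO libraries. All cKO libraries were above all Ctrl libraries (log2 fold change 4.65, SE 0.63, adjusted p in edgeR = 0.0276). The annotation holds 11 other models that are 90.2% to 93.5% identical to its longest transcript, 9 of them on chromosome 9, 1 on chromosome 2 and *Gm21738* on chromosome 14. *Gm21738* was counted 1, 3 and 4 times in Ctrl and 3, 45 and 74 times in cKO. Reads of such near copies may be shared out between them, so which copy was counted is uncertain.

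*Ptgs2* (ENSMUSG00000032487, chr1:150100031-150108227, plus strand) encodes cyclooxygenase-2, the inducible enzyme that makes the precursor of prostaglandins. It was at 229, 162 and 162 CPM in the Ctrl libraries and 79.4, 76.6 and 76.7 CPM in the cKO libraries. The cKO libraries lay within 3 CPM of each other and below every Ctrl library. This was a 2.38-fold fall, a log2 fold change of -1.25 (SE 0.17, adjusted p in edgeR = 0.0276). *Prkar2a* (ENSMUSG00000032601, chr9:108689314-108750436, plus strand), a regulatory subunit of the cAMP-dependent protein kinase PKA, was at 186, 175 and 165 CPM in the Ctrl libraries and 93.1, 95 and 98.8 CPM in the cKO libraries. It was 1.83-fold lower, with no overlap between groups (log2 fold change -0.87, SE 0.13, adjusted p in edgeR = 0.039). Without cKO replicate 1 the log2 fold changes of *Ptgs2* and *Prkar2a* were -1.25 and -0.84, and their adjusted p in edgeR 0.125 and 0.147.

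**Figure D1:**
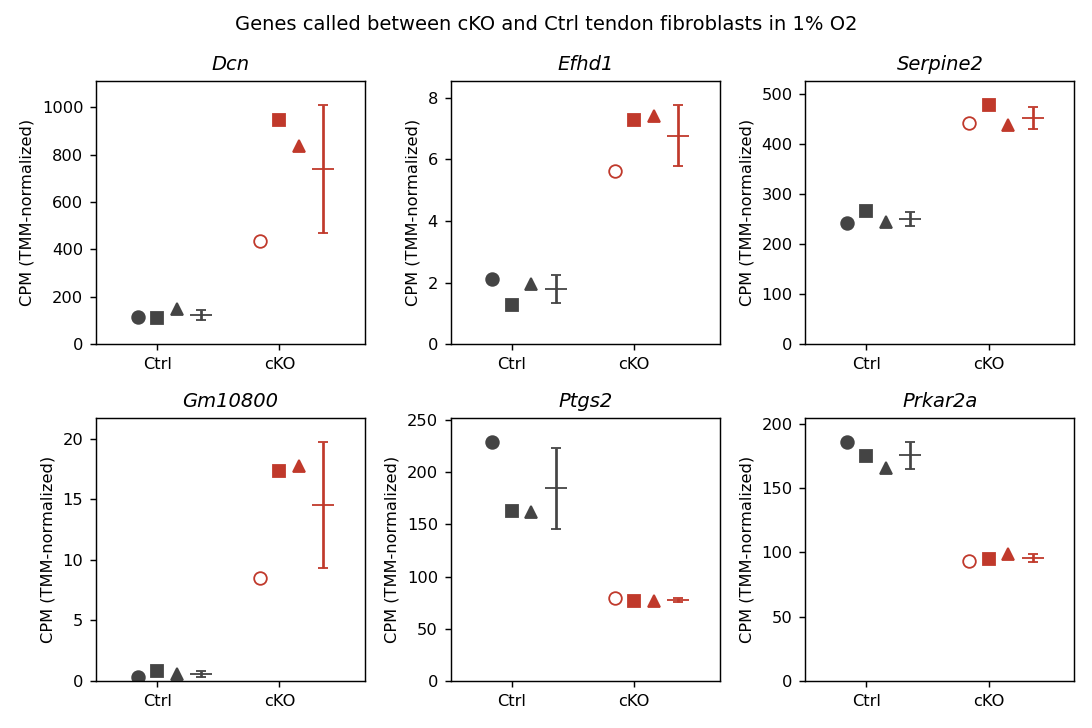
TMM-normalized CPM of the 6 genes called in 1% O2, one panel per gene with its axis starting at 0. Circles, squares and triangles are replicates 1, 2 and 3, grey for Ctrl and red for cKO, the open circle is the low-depth cKO replicate 1, and bars to the right give the mean and SD (n = 3). In each panel the 3 cKO libraries lie on one side of the 3 Ctrl libraries.

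Small leucine-rich proteoglycans bind collagen and set fibril diameter and spacing. With *Dcn*, 5 of the 12 tested members were higher at the unadjusted threshold (41.7%, beside 2.73% of autosomal genes) and 1 was lower, and the list's median log2 fold change was 0.64 (0.73 without cKO replicate 1). With the offsets for GC content and length the median was 0.28 and 4 were higher, and with the sex term it was 0.37 with 4 higher. *Lum* (lumican), a regulator of fibril thickness next to *Dcn* on chromosome 10, was at 1.29, 1.06 and 1.2 CPM in the Ctrl libraries and 4.61, 8.96 and 25.7 CPM in the cKO libraries. The cKO libraries were all above Ctrl but spread more than 5-fold among themselves, and replicate 3 was the highest (log2 fold change 3.49, SE 0.55, adjusted p in edgeR = 0.0576, and 0.0236 without cKO replicate 1). *Ogn*, the class III member osteoglycin, was at 112, 279 and 145 CPM in the Ctrl libraries and 353, 433 and 406 CPM in the cKO libraries (log2 fold change 1.16, SE 0.34, adjusted p in edgeR = 0.207, and 0.74 with the offsets). Its groups did not overlap either. *Ecm2* (6.76, 8.35 and 10.8 CPM in Ctrl, 14, 14.2 and 13.4 CPM in cKO) and *Podn* (2.08, 2.51 and 3.06 CPM and 2.16, 4.77 and 7.18 CPM) were the other higher members, and cKO replicate 1 overlapped Ctrl for *Podn*. *Podnl1* was lower, at 9.81, 5.87 and 7.86 CPM in the Ctrl libraries and 5.77, 3.17 and 4.15 CPM in the cKO libraries (log2 fold change -0.88, SE 0.26). Fibromodulin (*Fmod*), the abundant tendon member that promotes fibril growth, was at 863, 1072 and 869.6 CPM in the Ctrl libraries and 647, 893 and 1269 CPM in the cKO libraries, with overlapping groups.

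Genes that mark progenitor-like or sheath fibroblasts, from the loose tissue around tendon and vessels, were listed separately. Of 20 tested members 3 were higher (15%, beside 2.73% of autosomal genes) and 0 lower at the unadjusted threshold, also without cKO replicate 1, with a median of 0.31 (0.30 without it). By sign 14 were higher and 6 lower, with log2 fold changes from -0.88 to 2.59. Every cKO library was above Ctrl for 7 members and below for 1, beside 11.8% and 15.7% of autosomal genes. *Pi16*, a peptidase inhibitor of adventitial fibroblasts, was at 7.23, 10.8 and 8.8 CPM in the Ctrl libraries and 16.3, 47.6 and 53.8 CPM in the cKO libraries. All 3 cKO libraries were higher, and the low-depth replicate was the nearest to Ctrl (log2 fold change 2.15, SE 0.34, adjusted p in edgeR = 0.0576, and 0.00154 without cKO replicate 1). *Dpp4*, a membrane peptidase found on the same cells, was at 0.112, 0.575 and 0.419 CPM in the Ctrl libraries and 2.02, 2.56 and 2.05 CPM in the cKO libraries (log2 fold change 2.59, SE 0.54, adjusted p in edgeR = 0.129). *Clec3b*, which encodes the plasminogen-binding protein tetranectin, was at 2.86, 4.78 and 5.21 CPM in the Ctrl libraries and 9.95, 16.5 and 12.2 CPM in the cKO libraries (log2 fold change 1.60, SE 0.40). Neither gene overlapped between groups. *Cd34*, a sialomucin of stromal progenitors, was at 489, 412 and 281 CPM in the Ctrl libraries and 498, 519.5 and 508 CPM in the cKO libraries, above Ctrl in each cKO library by less than 1.5-fold (log2 fold change 0.37, SE 0.28). *Thy1*, a fibroblast surface protein, was at 62.8, 72.9 and 58.1 CPM in the Ctrl libraries and 40.8, 61.6 and 59.5 CPM in the cKO libraries, and its groups overlapped.

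Among 13 tenogenic regulators and tendon markers, *Ccn3* was higher and *Col1a1* lower at the unadjusted threshold (7.69% each way), and without cKO replicate 1 only *Ccn3* passed. *Scx*, whose promoter drives Cre here, was at 9.7, 15 and 6.26 CPM in the Ctrl libraries and 7.49, 17.7 and 17.9 CPM in the cKO libraries (log2 fold change 0.51, SE 0.42, adjusted p in edgeR = 0.523, and 0.21 with the sex term). *Ccn3*, a matricellular signalling protein, was at 64.6, 104 and 136 CPM in the Ctrl libraries and 202, 289.5 and 176 CPM in the cKO libraries, with all cKO libraries above Ctrl (log2 fold change 1.13, SE 0.34, adjusted p in edgeR = 0.207).

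Prostaglandins are made from arachidonic acid by the PTGS enzymes and terminal synthases, leave the cell through ABCC4, are taken back up by SLCO2A1 and act through PTGER and related receptors. The list held 15 tested members, of which 4 were lower and 0 higher at the unadjusted threshold, with or without cKO replicate 1. That is 26.7%, beside 7.05% of autosomal genes and 4.05% of all genes without that replicate, and with the offsets 3 of them passed. The cKO libraries were all below Ctrl for these 4. They are *Ptgs2*, the exporter *Abcc4*, the uptake carrier *Slco2a1* and the receptor gene *Ptger1*. *Abcc4* was at 53.5, 86.7 and 80.4 CPM in the Ctrl libraries and 19.3, 29.8 and 32 CPM in the cKO libraries (log2 fold change -1.43, SE 0.26, adjusted p in edgeR = 0.0846). *Slco2a1* was at 109, 109.6 and 91 CPM in the Ctrl libraries and 50.4, 49.8 and 61.1 CPM in the cKO libraries (log2 fold change -0.94, SE 0.24, and -0.57 with the offsets). *Ptger1* was at 7.54, 8.47 and 10.9 CPM in the Ctrl libraries and 2.45, 3.37 and 4.42 CPM in the cKO libraries (log2 fold change -1.36, SE 0.28, adjusted p in edgeR = 0.114). The constitutive cyclooxygenase gene *Ptgs1* overlapped between groups, at 249, 177 and 182 CPM in the Ctrl libraries and 203, 157 and 194 CPM in the cKO libraries. The median of the list was -0.14 (-0.21 without cKO replicate 1), so the lower members stand beside 11 that did not pass.

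PKA, which carries cAMP signals from G protein-coupled receptors, is built from catalytic and regulatory subunits and held in place by AKAP anchors. Only *Prkar2a* of its 18 tested genes (5.56%) passed the unadjusted threshold, with or without cKO replicate 1. The related subunit gene *Prkar1b* was at 86.8, 70.9 and 72.3 CPM in the Ctrl libraries and 60.5, 58.3 and 50.8 CPM in the cKO libraries, all cKO libraries below Ctrl but under the 1.5-fold limit (log2 fold change -0.44, SE 0.14). The catalytic subunit gene *Prkaca* was at 175, 174 and 159.6 CPM in the Ctrl libraries and 138, 142 and 149.6 CPM in the cKO libraries (log2 fold change -0.24, SE 0.12).

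BMP ligands act through SMAD proteins, which raise their own inhibitors as feedback and induce genes of bone and cartilage formation. Of 20 tested targets and feedback genes 5 were lower (25.0%, beside 7.05% of autosomal genes) and 1 higher at the unadjusted threshold, the same counts without cKO replicate 1 (beside 4.05% lower of all genes), and the median was -0.60 (-0.63 without it, -0.59 with the offsets, with 6 lower). In 20% O2 14 of the 20 were lower (beside 5.39% of all genes) and 1 higher, with a median of -1.34. The fall was thus not particular to 1% O2. The inhibitory SMAD gene *Smad7* was at 19.9, 38.7 and 26.7 CPM in the Ctrl libraries and 10.7, 11 and 14.2 CPM in the cKO libraries (log2 fold change -1.24, SE 0.24, adjusted p in edgeR = 0.112). *Smad6*, its BMP-selective relative, was at 31.8, 70.1 and 79.7 CPM in the Ctrl libraries and 23.8, 33.4 and 33.3 CPM in the cKO libraries (log2 fold change -1.0, SE 0.30, adjusted p in edgeR = 0.207), and cKO replicates 2 and 3 were just above Ctrl replicate 1. *Atoh8*, a BMP-induced transcription factor, was at 37.5, 76.1 and 80.5 CPM in the Ctrl libraries and 22.5, 30.7 and 24.2 CPM in the cKO libraries (log2 fold change -1.32, SE 0.33). All cKO libraries were below Ctrl for *Smad7* and *Atoh8*. *Smurf1*, a ubiquitin ligase that marks BMP SMADs for degradation, was at 85.6, 108 and 85.8 CPM in the Ctrl libraries and 40.8, 54.9 and 65.9 CPM in the cKO libraries, without overlap. *Osr2*, a zinc finger factor of limb and joint mesenchyme, was the higher member, at 4.93, 4.87 and 4.01 CPM in the Ctrl libraries and 11.8, 11.5 and 10.9 CPM in the cKO libraries (log2 fold change 1.31, SE 0.36).

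*Id1*, an immediate BMP target, was at 19.6, 33.8 and 31.4 CPM in the Ctrl libraries and 18.4, 22.6 and 13.5 CPM in the cKO libraries, with overlap (log2 fold change -0.64, SE 0.33, adjusted p in edgeR = 0.337). *Runx2*, the master factor of osteoblasts, was at 14.3, 21.7 and 17.2 CPM in the Ctrl libraries and 11.8, 13.2 and 13.4 CPM in the cKO libraries, below Ctrl in each cKO library but under the fold limit (log2 fold change -0.46, SE 0.17, adjusted p in edgeR = 0.238, and -0.16 with the offsets). Among 22 ligands and receptors 1 was higher and 1 lower at the unadjusted threshold (4.55% each way). The ligand gene *Bmp4* was counted 1, 17 and 26 times in Ctrl and 20, 119 and 299 times in cKO, or 0.028, 0.514 and 0.681 CPM in the Ctrl libraries and 2.88, 3.46 and 7.56 CPM in the cKO libraries (log2 fold change 3.52, SE 0.82, adjusted p in edgeR = 0.172). It is low in all libraries, yet the groups did not overlap. *Ltbp2*, a matrix protein of the family that holds latent TGF-β, was at 225, 457 and 314 CPM in the Ctrl libraries and 65.7, 86.4 and 164 CPM in the cKO libraries (log2 fold change -1.65, SE 0.43, adjusted p in edgeR = 0.202), also without overlap. The BMP receptor gene *Acvr1* was at 36.3, 38.2 and 33.5 CPM in the Ctrl libraries and 22.6, 26.9 and 28.8 CPM in the cKO libraries, lower in each cKO library by less than the fold limit. The TGF-β receptor genes *Tgfbr1* and *Tgfbr2* had log2 fold changes of -0.49 (SE 0.35, adjusted p in edgeR = 0.464) and -0.35 (SE 0.32, adjusted p in edgeR = 0.568), and the BMP SMAD gene *Smad9* of -0.41 (SE 0.42, adjusted p in edgeR = 0.611). *Tgfbr2* was at -0.10 with the offsets, and *Tgfbr1* and *Smad9* at -0.28 and -0.10 with the sex term. Of 15 Notch pathway genes 1 was lower at the unadjusted threshold with the offsets. Without the offsets 2 (13.3%) were lower, with or without cKO replicate 1. These were *Rbpj*, the DNA-binding effector, at 166, 127 and 108 CPM in the Ctrl libraries and 77.3, 80.5 and 83.9 CPM in the cKO libraries, and the receptor gene *Notch4*. It was at 2.05, 2.15 and 1.2 CPM in the Ctrl libraries and 0.144, 0.436 and 0.86 CPM in the cKO libraries (counts of 73, 71 and 46 and 1, 15 and 34). Both were below Ctrl in all cKO libraries.

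**Figure D2:**
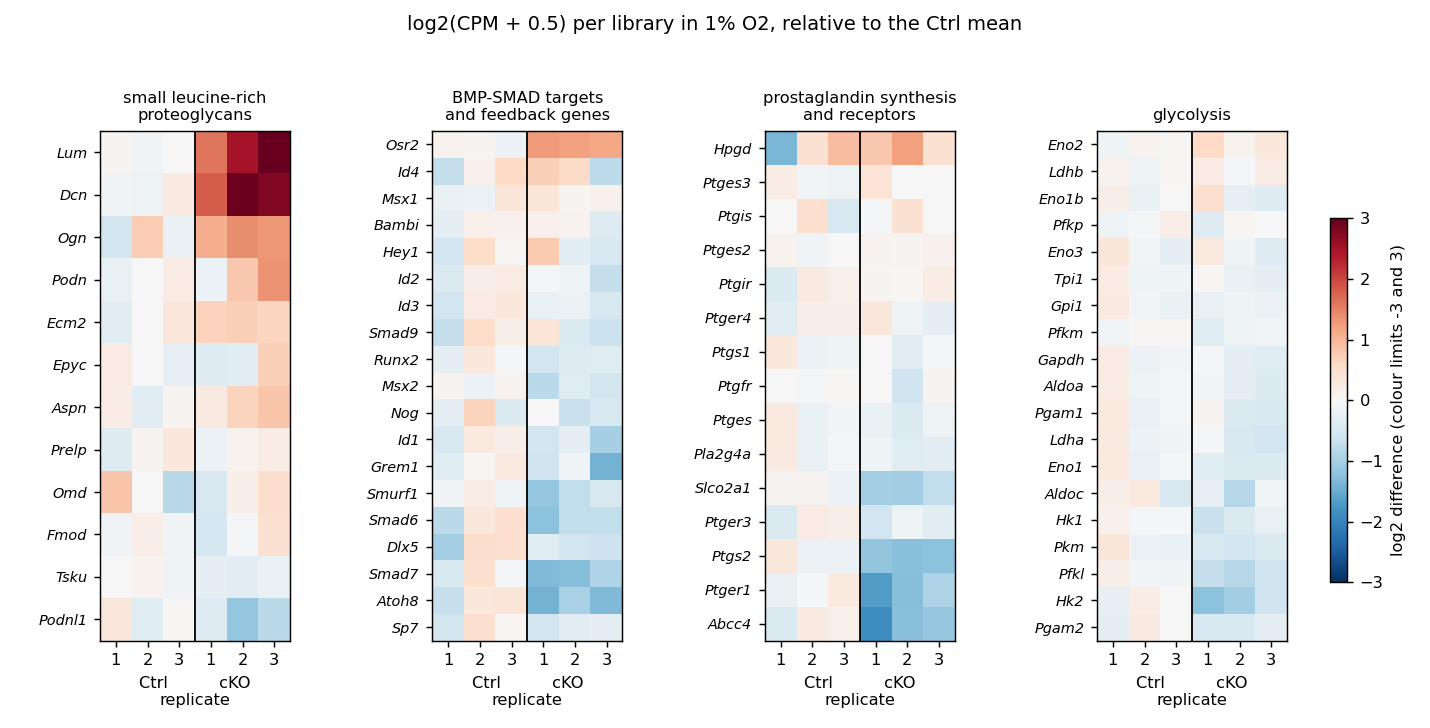
Each row is a gene and each column a library in 1% O2 (replicates 1 to 3 of Ctrl, then of cKO), coloured by log2(CPM + 0.5) minus the Ctrl mean, red for higher and blue for lower, within limits of -3 and 3, with 1 gene of the BMP-SMAD list not shown. *Lum* and *Dcn* stand out as higher in all 3 cKO libraries, and *Smad7*, *Ptgs2*, *Ptger1*, *Abcc4*, *Hk2* and *Pfkl* are lower in all 3.

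Of 37 tested genes of the hypoxia response, 7 were lower (18.9%, beside 7.05% of autosomal genes) and 1 higher at the unadjusted threshold. Leaving out cKO replicate 1 gave 8 lower (21.6%, beside 4.05% of all genes) and 2 higher, and with the offsets 5 lower (beside 4.31%) and 1 higher, *Ndrg1* in place of *Adm*. The median was -0.13 (-0.16 without that replicate). After adjustment 0 of the 37 passed with edgeR. With DESeq2 6 passed, 5 lower and 1 higher, beside 1.44% lower and 0.677% higher of the genes given an adjusted p. The 7 lower genes at the unadjusted threshold are *Slc16a3*, *Ak4*, *Narf*, *Pfkfb3*, *Kdm3a*, *Pdk1* and *Vegfa*. *Slc16a3* encodes MCT4, which exports lactate, and was at 183, 154 and 136 CPM in the Ctrl libraries and 99.2, 68.4 and 97.2 CPM in the cKO libraries (log2 fold change -0.84, SE 0.22, adjusted p in edgeR = 0.202). *Ak4*, a mitochondrial adenylate kinase, was at 90, 82.9 and 73.6 CPM in the Ctrl libraries and 56.8, 39.8 and 41.3 CPM in the cKO libraries (log2 fold change -0.85, SE 0.23). The nuclear protein gene *Narf* was at 90.5, 93.6 and 101 CPM in the Ctrl libraries and 58.7, 45.1 and 45.3 CPM in the cKO libraries (log2 fold change -0.94, SE 0.17, adjusted p in edgeR = 0.084). None of these overlapped between groups. *Pfkfb3*, which makes the activator of phosphofructokinase, was at 64.8, 32.1 and 35.6 CPM in the Ctrl libraries and 28.8, 16.5 and 21.6 CPM in the cKO libraries. *Pdk1*, a kinase that inhibits pyruvate dehydrogenase, was at 97.3, 101 and 97.5 CPM in the Ctrl libraries and 67.6, 55 and 68.5 CPM in the cKO libraries. *Vegfa*, the vessel growth factor, was at 104, 163 and 173 CPM in the Ctrl libraries and 83.5, 93.3 and 83.1 CPM in the cKO libraries. *Kdm3a*, a histone demethylase, was at 73.2, 78.1 and 74.6 CPM in the Ctrl libraries and 49.7, 42 and 48.6 CPM in the cKO libraries. For each of these 4 genes, too, all cKO libraries were below all Ctrl libraries.

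The higher gene was *Adm*, which encodes the vessel-dilating peptide adrenomedullin, at 579, 592 and 755 CPM in the Ctrl libraries and 1131, 1121 and 937 CPM in the cKO libraries. All cKO libraries were above Ctrl (log2 fold change 0.73, SE 0.19, adjusted p in edgeR = 0.202). In the whole list 5 of 37 genes had all cKO libraries above Ctrl and 12 had all below, beside 11.8% and 15.7% of autosomal genes. *Hilpda*, a lipid droplet protein that low oxygen induces, was at 19.2, 14.3 and 17 CPM in the Ctrl libraries and 21.9, 20.5 and 16.7 CPM in the cKO libraries, with overlap (log2 fold change 0.22, SE 0.19, adjusted p in edgeR = 0.537, and -0.0367 with the offsets). *Bnip3*, a mitophagy receptor, was at 414, 362 and 401 CPM in the Ctrl libraries and 558, 360.5 and 345 CPM in the cKO libraries. Its cKO replicates 2 and 3 lay just below Ctrl, and replicate 1 above it.

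Of 19 glycolysis genes tested, 17 had a negative log2 fold change, as had 50.1% of autosomal genes. At the unadjusted threshold 2 were lower (10.5%, near the 7.05% of autosomal genes) and 0 higher, with or without cKO replicate 1. The median was -0.25 (-0.32 without it, and -0.17 with the offsets for GC content and length). *Pfkl*, the liver-type phosphofructokinase that commits sugar to glycolysis, was at 339.8, 282 and 279 CPM in the Ctrl libraries and 183, 165 and 196 CPM in the cKO libraries (log2 fold change -0.73, SE 0.12, adjusted p in edgeR = 0.0638), and with the offsets the log2 fold change was -0.40 (adjusted p in edgeR = 0.273). *Hk2*, the inducible hexokinase of the first step, was at 10.3, 14.3 and 12.3 CPM in the Ctrl libraries and 4.9, 5.64 and 7.84 CPM in the cKO libraries (log2 fold change -0.98, SE 0.26). Both were below Ctrl in all cKO libraries. *Pkm* (pyruvate kinase) was at 5270, 3637 and 3602 CPM in the Ctrl libraries and 3000, 2751 and 3029 CPM in the cKO libraries, and *Eno1* (enolase) at 3819, 2710 and 2994 CPM in the Ctrl libraries and 2442, 2313 and 2373 CPM in the cKO libraries. These 2 abundant enzymes were also below Ctrl in all cKO libraries, by less than 1.5-fold (log2 fold change -0.51, SE 0.17, and -0.42, SE 0.15). With the offsets they were -0.27 and -0.16 (adjusted p in edgeR = 0.508 and 0.743). *Eno1* has a near copy, *Eno1b*, with which its reads may be shared. *Ldha*, the lactate dehydrogenase subunit, overlapped, at 2631, 1939 and 2036 CPM in the Ctrl libraries and 2080, 1576 and 1469 CPM in the cKO libraries. In the pentose phosphate pathway, which makes NADPH from glucose, 1 of 8 tested autosomal genes was lower at the unadjusted threshold and 0 without cKO replicate 1, with medians of -0.25 and -0.03. With the offsets 0 were lower and the median was -0.14. The lower gene was *H6pd*, an enzyme of the same first step in the endoplasmic reticulum (log2 fold change -0.67, SE 0.28). *Pgd*, which catalyses the next oxidative step, was at 566, 526 and 524 CPM in the Ctrl libraries and 394, 434 and 378 CPM in the cKO libraries, below Ctrl in each cKO library by less than the fold limit (log2 fold change -0.42, SE 0.11, and -0.25 with the offsets). Of 9 HIF subunit and oxygen sensor genes only *Hif1an*, whose enzyme hydroxylates HIF-1α and blocks its activity, was lower at the unadjusted threshold, at 35.7, 65.9 and 50.4 CPM in the Ctrl libraries and 20.2, 26.8 and 35.5 CPM in the cKO libraries (log2 fold change -0.87, SE 0.35), and it did not pass without cKO replicate 1.

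HIF dimers bind the core ACGTG or GCGTG. RefSeq gave promoter windows (250 bases before the start, GRCm38.p6) for 28 of the 37 hypoxia genes and 18 of the 19 glycolysis genes, and both strands were searched for the 2 letter strings. CACGTG, which reads the same on both strands, holds one match on each. At least 1 was present in 23 of 28 and 11 of 18, against 38.6% of all 32851 windows and 56.0% of the autosomal genes tested. Of the 841 lower genes with a window 60.2% held one, and of the 198 higher genes 46.0%. Of the 7 lower hypoxia genes 6 held one, all but *Vegfa*. A match is a string of letters and not a shown binding site. The windows of the lactate exporter, the adenylate kinase and the 2 lower glycolysis genes are printed below because these genes were lower in all cKO libraries, and that of *Adm* because it was higher. All read 5′ to 3′ on the gene's strand in lower case, with each match of either core or its reverse complement in capitals.
*Slc16a3*, chr11:120948817-120949066, plus strand, log2 fold change -0.84: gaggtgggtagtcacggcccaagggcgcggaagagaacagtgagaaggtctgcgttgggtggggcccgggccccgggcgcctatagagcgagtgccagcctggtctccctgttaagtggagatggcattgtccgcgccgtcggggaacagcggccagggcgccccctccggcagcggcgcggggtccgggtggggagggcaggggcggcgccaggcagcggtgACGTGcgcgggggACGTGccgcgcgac
*Ak4*, chr4:101419039-101419288, plus strand, log2 fold change -0.85: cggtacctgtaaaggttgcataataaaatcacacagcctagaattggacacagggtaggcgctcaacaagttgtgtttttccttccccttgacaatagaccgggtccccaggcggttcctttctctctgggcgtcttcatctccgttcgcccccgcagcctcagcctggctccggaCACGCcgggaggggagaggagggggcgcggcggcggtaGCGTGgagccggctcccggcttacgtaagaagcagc
*Hk2*, chr6:82774455-82774704, minus strand, log2 fold change -0.98: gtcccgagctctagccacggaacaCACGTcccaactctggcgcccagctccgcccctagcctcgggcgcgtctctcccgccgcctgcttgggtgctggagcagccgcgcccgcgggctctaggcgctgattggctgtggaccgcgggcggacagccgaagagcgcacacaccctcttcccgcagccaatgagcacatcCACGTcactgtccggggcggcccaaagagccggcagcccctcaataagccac
*Pfkl*, chr10:78009808-78010057, minus strand, log2 fold change -0.73: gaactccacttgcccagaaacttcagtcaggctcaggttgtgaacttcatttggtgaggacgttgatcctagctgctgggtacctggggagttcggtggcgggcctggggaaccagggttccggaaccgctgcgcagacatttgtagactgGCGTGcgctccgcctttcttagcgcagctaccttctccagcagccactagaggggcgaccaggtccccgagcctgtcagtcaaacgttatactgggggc
*Adm*, chr7:110627407-110627656, plus strand, log2 fold change 0.73: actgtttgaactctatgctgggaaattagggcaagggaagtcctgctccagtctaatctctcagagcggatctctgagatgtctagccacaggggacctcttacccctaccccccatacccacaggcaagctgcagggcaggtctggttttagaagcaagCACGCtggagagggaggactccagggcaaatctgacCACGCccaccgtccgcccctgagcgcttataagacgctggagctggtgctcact
*Slc16a3* and *Hk2* each held 2 ACGTG cores and 0 GCGTG cores, and *Ak4*, *Pfkl* and *Adm* held 2, 1 and 2 GCGTG cores and 0 of the other. The higher gene *Adm* thus carried as many cores in this window as the lower gene *Ak4*.

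Basement membrane is the sheet of collagen IV, laminin and nidogen that underlies vessels and epithelia. Of 19 basement membrane genes 5 were lower (26.3%, beside 7.05% of autosomal genes) and 0 higher at the unadjusted threshold, with a median of -0.70. Without cKO replicate 1 the count was 0 and the median -0.48, and with the offsets 3 were lower, 1 was higher and the median was -0.39. *Col4a1* and *Col4a2* encode the chains of the main collagen IV network. *Col4a1* was at 393, 628 and 486 CPM in the Ctrl libraries and 159.7, 203 and 355 CPM in the cKO libraries. *Col4a2* was at 202, 382 and 291 CPM in the Ctrl libraries and 90.5, 118 and 199.9 CPM in the cKO libraries. All cKO libraries were below Ctrl, and replicate 1 was the lowest (log2 fold changes -1.07, SE 0.38, and -1.10, SE 0.39). The laminin chain genes *Lamb1* (-0.66, SE 0.30, and -0.33 with the offsets) and *Lamb3* (-0.70, SE 0.27) were 2 more of the lower genes, and *Lamb3* overlapped (log2 fold change -0.44 with the offsets). *Nid1*, the nidogen that links laminin to collagen IV, was at 869.7, 1350 and 1173 CPM in the Ctrl libraries and 469.9, 784 and 657 CPM in the cKO libraries (log2 fold change -0.83, SE 0.30). Among 11 fibrillar collagens 2, *Col1a1* and *Col5a2*, were lower at the unadjusted threshold and 0 without cKO replicate 1, with medians of -0.54 and -0.34. With the offsets the median was -0.18 and neither passed, and *Col5a2* was at -0.45 in place of -0.74. *Col1a1*, the main chain of tendon collagen, was at 2286, 6270 and 3559 CPM in the Ctrl libraries and 843, 1873 and 2956 CPM in the cKO libraries, and the groups overlapped (log2 fold change -1.09, SE 0.48, adjusted p in edgeR = 0.286). Of 16 collagen-modifying and crosslinking enzymes only the lysyl oxidase relative *Loxl4* passed (6.25%), with or without cKO replicate 1. It was at 45.3, 35.4 and 28.7 CPM in the Ctrl libraries and 11.2, 11.1 and 17.3 CPM in the cKO libraries, with no overlap (log2 fold change -1.45, SE 0.27, adjusted p in edgeR = 0.0972).

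Contractile and cytoskeletal genes with SRF and YAP targets had 8 lower (25.8%, beside 7.05% of autosomal genes) and 0 higher of 31 tested members at the unadjusted threshold. Leaving out cKO replicate 1 gave 3 (9.68%, beside 4.05% of all genes) and the offsets gave 6, and the medians of the 3 fits were -0.26, -0.18 and -0.18. *Itga5*, the fibronectin receptor subunit, was at 278, 312 and 299 CPM in the Ctrl libraries and 94.4, 154 and 193 CPM in the cKO libraries. *Lats2*, a Hippo pathway kinase, was at 236, 309 and 284 CPM in the Ctrl libraries and 147, 174 and 191 CPM in the cKO libraries. *Lmod1*, an actin nucleator of smooth muscle, was at 14.5, 17.3 and 21.9 CPM in the Ctrl libraries and 11.1, 11.2 and 10.6 CPM in the cKO libraries. None of the 3 overlapped (log2 fold changes -1.01, -0.69 and -0.71, SE 0.24, 0.22 and 0.23). The nonmuscle myosin heavy chain gene *Myh9* was at 116, 261 and 158 CPM in the Ctrl libraries and 64.9, 90.7 and 118 CPM in the cKO libraries. Its relative *Myh10* was at 20.7, 32.1 and 21.6 CPM in the Ctrl libraries and 9.66, 17.6 and 19 CPM in the cKO libraries. *Myh9* overlapped by cKO replicate 3 alone, and *Myh10* did not overlap (log2 fold changes -0.96, SE 0.39, and -0.65, SE 0.28). With the offsets *Lats2*, *Myh9* and *Myh10* were at -0.43, -0.49 and -0.32 on the same scale. Among the remaining lower members was *Tln1*, which encodes talin 1 (log2 fold change -1.25, SE 0.46, and -0.81 with the offsets), without overlap. Smooth muscle actin *Acta2* overlapped, at 1416, 1105 and 1652 CPM in the Ctrl libraries and 1329, 1241 and 1282 CPM in the cKO libraries.

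**Figure D3:**
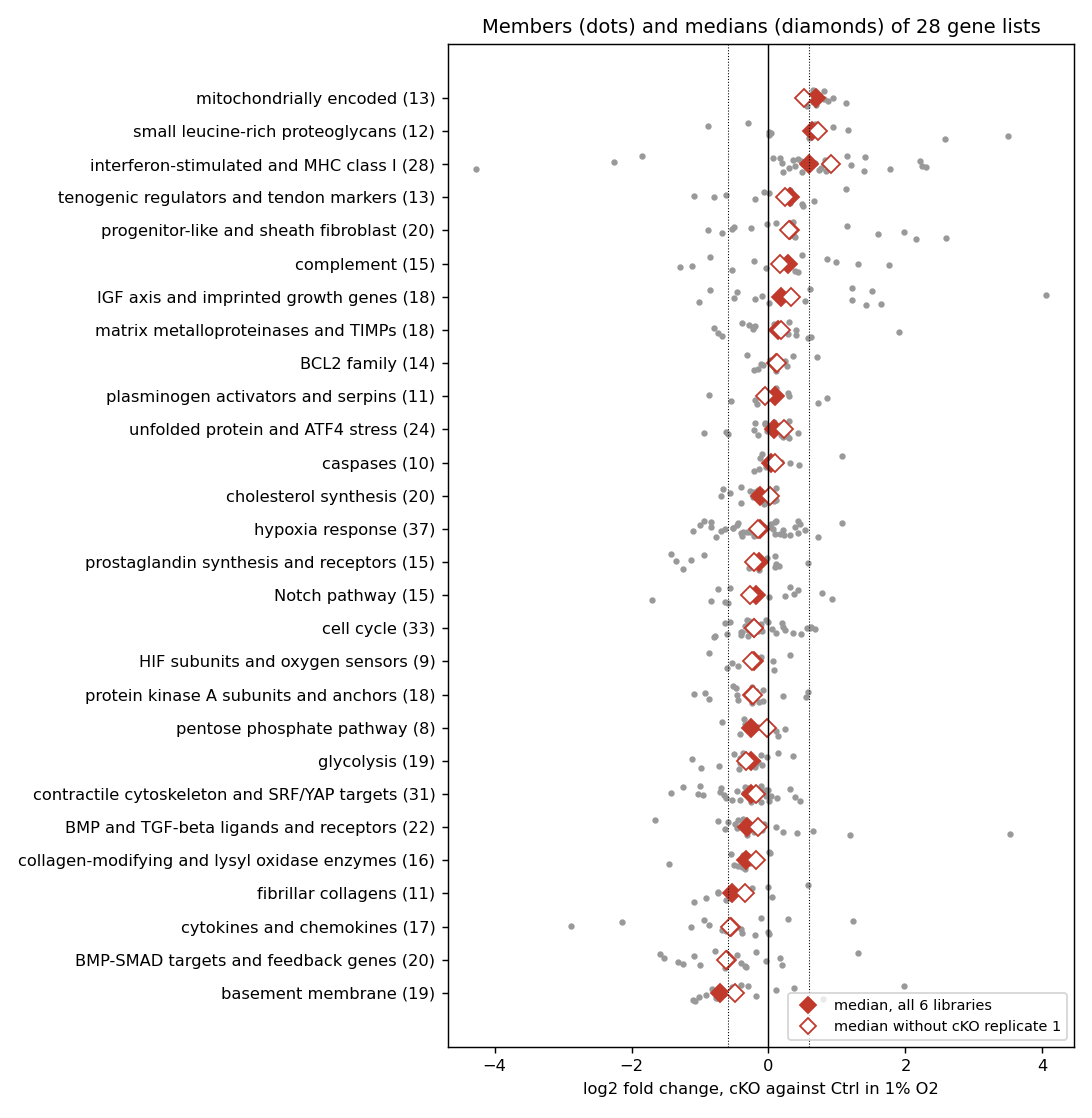
Log2 fold change (horizontal axis) of cKO against Ctrl in 1% O2 for the tested members (grey dots) of 28 gene lists, with the number of tested members in parentheses, the median of each list (filled diamonds) and the median without cKO replicate 1 (open diamonds). Dotted lines mark 1.5-fold in either direction. The small leucine-rich proteoglycans have a median of 0.64 and the BMP-SMAD genes of -0.60, and for the basement membrane genes the median moves from -0.70 to -0.48 without cKO replicate 1.

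Metalloproteinases cut matrix proteins and TIMPs inhibit them. Of 18 metalloproteinases and TIMPs 1 (5.56%) was higher at the unadjusted threshold (2 without cKO replicate 1). *Mmp13*, the rodent interstitial collagenase, was at 1.12, 2.72 and 1.65 CPM in the Ctrl libraries and 10.1, 4.42 and 6.6 CPM in the cKO libraries, without overlap (log2 fold change 1.90, SE 0.51, adjusted p in edgeR = 0.204). *Mmp2*, a gelatinase, was at 196, 193 and 201 CPM in the Ctrl libraries and 281, 259 and 345 CPM in the cKO libraries, also higher in each cKO library (log2 fold change 0.58, SE 0.15). *Serpine2* was the only one of 11 plasminogen activator and serpin genes past the unadjusted threshold.

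In the IGF axis and imprinted growth genes 4 of 18 were higher (22.2%, beside 2.73% of autosomal genes) and 1 lower at the unadjusted threshold. Leaving out cKO replicate 1 gave 6 higher (33.3%, beside 2.05% of all genes) and 0 lower. The 4 are *Igf1*, *Igfbp3*, *H19* and *Plagl1*, an imprinted zinc finger factor, and the lower gene is *Grb10*, an imprinted growth inhibitor (log2 fold change -0.86, SE 0.32), with overlap. *Igf1*, the growth factor, was at 16.3, 27.9 and 26.9 CPM in the Ctrl libraries and 63.9, 53.8 and 72.4 CPM in the cKO libraries, with all cKO libraries above Ctrl (log2 fold change 1.42, SE 0.23, adjusted p in edgeR = 0.0576). *Igfbp3*, its main carrier, was at 29.7, 34.7 and 22.3 CPM in the Ctrl libraries and 51, 55.2 and 94 CPM in the cKO libraries, also without overlap (log2 fold change 1.21, SE 0.32). *H19*, an imprinted noncoding RNA, was counted 2, 1 and 2 times in Ctrl and 3, 21 and 51 times in cKO. The Ctrl libraries were below the 3-count floor and cKO replicate 1 was at it, so no fold change is given.

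Complement genes had 2 higher (13.3%) and 1 lower (6.67%) of 15 at the unadjusted threshold (3 and 0 with the offsets). *Cfb*, a protease of the alternative pathway, was at 3.36, 4.99 and 4.95 CPM in the Ctrl libraries and 8.22, 13.1 and 11.5 CPM in the cKO libraries. *Cd55*, which protects cells from complement, was at 203, 229.7 and 292 CPM in the Ctrl libraries and 403, 429 and 478 CPM in the cKO libraries. Both were above Ctrl in all cKO libraries (log2 fold changes 1.31, SE 0.41, and 0.86, SE 0.28). The lower gene was *Masp1*, a protease of the lectin pathway (log2 fold change -0.85, SE 0.34). Of 17 cytokine genes 1 was higher and 2 lower (11.8%) at the unadjusted threshold (0 and 4 without cKO replicate 1, 1 and 5 with the offsets). *Cxcl12*, a stromal chemokine, was at 40.7, 205 and 155 CPM in the Ctrl libraries and 344, 359 and 237 CPM in the cKO libraries. *Csf1*, the macrophage growth factor, was at 2407, 3135 and 2648 CPM in the Ctrl libraries and 1853, 1789 and 1693 CPM in the cKO libraries. The groups overlapped for the neutrophil chemokine *Cxcl1* (log2 fold change -0.87, SE 0.40) and did not for *Cxcl12* or *Csf1* (log2 fold changes 1.23, SE 0.46, and -0.62, SE 0.18).

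Interferon-stimulated and MHC class I genes varied between libraries of one genotype. *Ifit1*, an antiviral effector, was at 0.701, 119 and 1.15 CPM in the Ctrl libraries and 13.6, 149 and 4.85 CPM in the cKO libraries. Replicate 2 was the highest of its group in both genotypes. Of 28 tested genes 3 were higher (10.7%, beside 2.73% of autosomal genes) at the unadjusted threshold (6 without cKO replicate 1), with a median of 0.59. Without cKO replicate 2 the median was -0.34, and without Ctrl replicate 2 it was 1.92, so its direction and size rest on these libraries. The 3 higher genes were *B2m*, *Bst2* (log2 fold change 2.21, SE 0.85), an antiviral tether, and *Psmb8* (1.41, SE 0.48), an immunoproteasome subunit. *Bst2* and *Psmb8* overlapped between groups. *B2m*, the light chain of MHC class I, was at 273, 335 and 354 CPM in the Ctrl libraries and 566, 686 and 455 CPM in the cKO libraries, with all cKO libraries above Ctrl (log2 fold change 0.83, SE 0.23, adjusted p in edgeR = 0.207). With the offsets its log2 fold change was 0.34 (adjusted p in edgeR = 0.468). In 20% O2 the median of the list was -1.73, with 13 of 28 genes lower and 0 higher at the unadjusted threshold.

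Of 10 caspase genes only *Casp12*, whose protease sits at the endoplasmic reticulum, was higher at the unadjusted threshold. It was at 29.7, 40 and 46.5 CPM in the Ctrl libraries and 94.8, 74.1 and 75.5 CPM in the cKO libraries. The lowest cKO library was above the highest Ctrl library (log2 fold change 1.07, SE 0.17, adjusted p in edgeR = 0.0576). Of 14 BCL2 family genes *Pmaip1*, the p53-induced death gene also called Noxa, was higher at the unadjusted threshold, at 12.2, 13.9 and 18.6 CPM in the Ctrl libraries and 28.5, 29.8 and 15.2 CPM in the cKO libraries, with overlap, and did not pass without cKO replicate 1 (log2 fold change 0.71, and 0.46 with the offsets). *Bcl2*, which blocks apoptosis, was at 2.35, 3.66 and 3.88 CPM in the Ctrl libraries and 3.31, 4.1 and 3.21 CPM in the cKO libraries (log2 fold change 0.11, SE 0.23, adjusted p in edgeR = 0.816, 0.35 with the offsets and 0.23 with the sex term). In the unfolded protein list 3 of 24 genes (12.5%, beside 7.05% of autosomal genes) were lower at the unadjusted threshold, and 0 without cKO replicate 1 or with the offsets or the sex term. These 3 encode the stress sensors of the endoplasmic reticulum, *Atf6* (log2 fold change -0.60, SE 0.24, and -0.35 with the offsets), *Ern1* (-0.94, SE 0.39) and *Eif2ak3* (-0.62, SE 0.21), and only *Eif2ak3* did not overlap. The chaperone gene *Hspa5* that they induce was at 1561, 2245 and 2193 CPM in the Ctrl libraries and 1973, 2719 and 2728 CPM in the cKO libraries, with overlap.

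Cell cycle genes gave 1 higher and 0 lower of 33 at the unadjusted threshold, and 0 without cKO replicate 1. The higher gene was *Cdkn1b*, the cyclin kinase inhibitor p27 (log2 fold change 0.68, SE 0.29). The proliferation marker *Mki67* was at 10.2, 10.3 and 3.88 CPM in the Ctrl libraries and 5.48, 4.16 and 4.58 CPM in the cKO libraries, with Ctrl replicate 3 below every cKO library and the other Ctrl libraries above. In cholesterol synthesis and uptake 2 of 20 (10.0%) were lower and 0 without cKO replicate 1 or with the offsets. *Lss*, which makes lanosterol, was at 80.9, 50.6 and 48.6 CPM in the Ctrl libraries and 31.9, 38.3 and 41.1 CPM in the cKO libraries. It was below Ctrl in all cKO libraries (log2 fold change -0.69, SE 0.20, and -0.43 with the offsets). The 13 mitochondrially encoded genes all had positive log2 fold changes with a median of 0.70, and 8 passed the unadjusted threshold (61.5%, beside 2.83% of all genes). Without cKO replicate 1 the median was 0.51 and 0 passed. With all libraries, 9 of the 13 had every cKO library above every Ctrl library, beside 11.9% of all genes. With offsets for GC content and length the median of these genes was 0.08 and 0 passed.

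The rule for single genes also named genes outside these lists, beginning with those lower in cKO TFs. Other than genes the study names, these had to have groups that did not overlap. Their separation, here and in the next paragraph, therefore follows from the choice and is no result. *Clcf1*, a cytokine of the IL-6 family, was at 22.8, 24.1 and 22.8 CPM in the Ctrl libraries and 11.2, 12.9 and 12.3 CPM in the cKO libraries. The groups were tight and apart (log2 fold change -0.93, SE 0.14, adjusted p in edgeR = 0.0569). *Kcnf1*, a potassium channel subunit, was at 7.96, 13.1 and 8.17 CPM in the Ctrl libraries and 2.45, 2.47 and 1.74 CPM in the cKO libraries. *Slc6a17*, a transporter of neutral amino acids, was at 18.6, 20 and 19.1 CPM in the Ctrl libraries and 8.65, 6.16 and 5.06 CPM in the cKO libraries. Neither overlapped (log2 fold changes -2.15, SE 0.36, and -1.57, SE 0.26). The glutathione conjugate exporter *Abcc1* was at 125, 176 and 139.5 CPM in the Ctrl libraries and 51.9, 66.5 and 69 CPM in the cKO libraries. The transferrin receptor *Tfrc*, which brings iron into cells, was at 31.5, 36 and 29.3 CPM in the Ctrl libraries and 16.6, 14.2 and 13.9 CPM in the cKO libraries. Both were below Ctrl in every cKO library (log2 fold changes -1.23, SE 0.22, and -1.12, SE 0.20). *Cubn*, *Lrrk2* and *Usp20*, which encode an endocytic receptor, a kinase and a deubiquitinase, had log2 fold changes of -2.72 (SE 0.48), -1.48 (SE 0.27) and -1.09 (SE 0.18, and -0.72 with the offsets). *Cubn* was counted 79, 104 and 76 times in Ctrl and 2, 18 and 10 times in cKO. Its cKO replicate 1 was under the 3-count floor, so the size of its fall is uncertain. In the other direction, *Slc40a1*, the iron exporter ferroportin, was at 16.7, 48 and 43.6 CPM in the Ctrl libraries and 56.6, 71.3 and 58.8 CPM in the cKO libraries (log2 fold change 0.79, SE 0.31), higher in each cKO library.

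*Itgbl1*, a secreted protein with integrin-like repeats, was at 103, 147 and 169 CPM in the Ctrl libraries and 247, 328 and 316 CPM in the cKO libraries. *Vcam1*, a cell adhesion molecule, was at 565, 752 and 809 CPM in the Ctrl libraries and 1144, 1185 and 1064 CPM in the cKO libraries. Both were above Ctrl in all cKO libraries, as the rule required (log2 fold changes 1.09, SE 0.19, and 0.67, SE 0.13). *Rab3il1*, *Slc27a3*, *Cyb561* and *Tcf4*, for a Rab activator, a fatty acid-activating protein, a membrane cytochrome and a helix-loop-helix factor, had log2 fold changes of 1.04 (SE 0.19), 0.70 (SE 0.14), 1.00 (SE 0.22) and 0.64 (SE 0.13). Under edgeR's adjustment these genes missed the threshold, with adjusted p from 0.0569 to 0.141 for those that met the rule for single genes.

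Marker lists of other cells were read for mixture. Tendon fibroblast markers were present in all libraries (summed 7708 to 16630 CPM in Ctrl and 6700 to 12680 CPM in cKO), and *Scx* was detected in each. Leukocyte markers summed to 25.4 to 34.5 CPM in Ctrl and 27.7 to 32.9 CPM in cKO, with *Adgre1* at 0 in all 6 libraries. Of 8 pericyte and smooth muscle markers 3 (37.5%) were lower at the unadjusted threshold (*Rgs5*, *Myh11* and *Pdgfrb*, 2 without cKO replicate 1), and the list summed to 299.9 to 319.8 CPM in Ctrl and 158 to 229 CPM in cKO. By sign 6 of the 8 were lower and 2 higher, with log2 fold changes from -1.03 to 1.83, so the markers did not all move one way. The list includes *Myh11*, the smooth muscle myosin, at 15.6, 34.8 and 32.6 CPM in the Ctrl libraries and 9.66, 14.5 and 16 CPM in the cKO libraries, where cKO replicate 3 overlapped Ctrl. The part of these cells in the contractile and Notch results was not tested. Endothelial markers summed to 11.7 to 27.9 CPM in Ctrl and 17.0 to 40.5 CPM in cKO, and chondrocyte markers to 29.7 to 56.1 CPM and 31.4 to 37.0 CPM, with *Acan* and *Col9a1* at 0. Osteoblast, keratinocyte, adipocyte, skeletal muscle and Schwann cell markers each summed to under 31 CPM in every library, with *Ibsp*, *Krt1*, *Plin1*, *Lep*, *Ckm* and *Pax7* at 0.

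The same genotypes were also cultured in 20% O2, in other libraries whose sexes by *Xist* followed the same order of replicate numbers. The labels do not say whether cultures share mice, so it is not known whether the 2 oxygen levels are independent, and the fit treats its 12 libraries as if they were. At 20% O2 edgeR called 55 genes (0.347%), with 498 genes higher (3.14%) and 854 lower (5.39%) at the unadjusted threshold. Contractile genes had 10 lower and 0 higher of 31 there (median -0.43), and progenitor-like genes 7 higher and 1 lower of 20 (median 0.50). At both oxygen levels, more contractile genes were lower than higher at the unadjusted threshold, and more progenitor-like genes higher than lower. Neither list was tested. The hypoxia response had 3 lower and 2 higher of 37 (median 0.07), and glycolysis had 0 either way (median 0.09). *Dcn* was at 163, 189 and 289 CPM in Ctrl and 749, 987 and 763 CPM in cKO in 20% O2 (log2 fold change 1.96, SE 0.29, adjusted p in edgeR = 0.0233). *Ptgs2* was at 209.8, 173 and 147 CPM in Ctrl and 74.4, 73 and 93.3 CPM in cKO there (log2 fold change -1.14, SE 0.17, adjusted p in edgeR = 0.0233). *Prkar2a* was at 180.3, 180.4 and 174 CPM in Ctrl and 122, 88.7 and 122 CPM in cKO (log2 fold change -0.69, SE 0.13, adjusted p in edgeR = 0.0449). These 3 genes, and *Efhd1* with a log2 fold change of 1.51 (SE 0.25, adjusted p in edgeR = 0.0287), were called at both oxygen levels. *Lum* had a log2 fold change of 3.44 there, *Pi16* of 1.78 and *Casp12* of 0.95, close to those in 1% O2.

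*Serpine2* and *Gm10800* were called in 1% O2 and not in 20% O2. *Serpine2* was at 417, 390.2 and 377 CPM in Ctrl and 429, 475 and 476 CPM in cKO in 20% O2 (log2 fold change 0.22, SE 0.10, adjusted p in edgeR = 0.35). *Gm10800* was at 0.783, 2.93 and 3.31 CPM in Ctrl and 5.76, 2.68 and 9.14 CPM in cKO (log2 fold change 1.33, SE 0.54), a log2 difference of 3.32 between the 2 effects (SE 0.80). For *Slc16a3* and *Pfkl*, which low oxygen induces, the log2 fold change was 0.35 (SE 0.26) and -0.14 (SE 0.12) in 20% O2, a difference of -1.19 (SE 0.34) and -0.58 (SE 0.17) between oxygen levels. The test of this difference passed for 0 of 15850 genes with edgeR, with a lowest adjusted p of 0.9999, for 292 at the unadjusted threshold (1.84%), and for 2 genes with DESeq2. These 2 were *Serpine2*, with a log2 difference of 0.66 (SE 0.13, adjusted p in DESeq2 = 0.015), and *Atoh8*, with 2.28 (SE 0.48, adjusted p in DESeq2 = 0.022). *Atoh8* was at 103, 59.7 and 81.6 CPM in Ctrl and 6.76, 9.57 and 4.13 CPM in cKO in 20% O2 (log2 fold change -3.58, SE 0.36), so it was lower in cKO at both levels and by more in 20% O2. For the other genes named here a different response at the 2 oxygen levels is not shown by either tool. Of the 416 higher and 1076 lower autosomal genes of 1% O2, 386 and 1012 had the same sign in 20% O2. The share with the same sign over all autosomal genes was not counted. Since the cultures may share mice, these counts are no replication of the genotype difference.

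**Figure D4:**
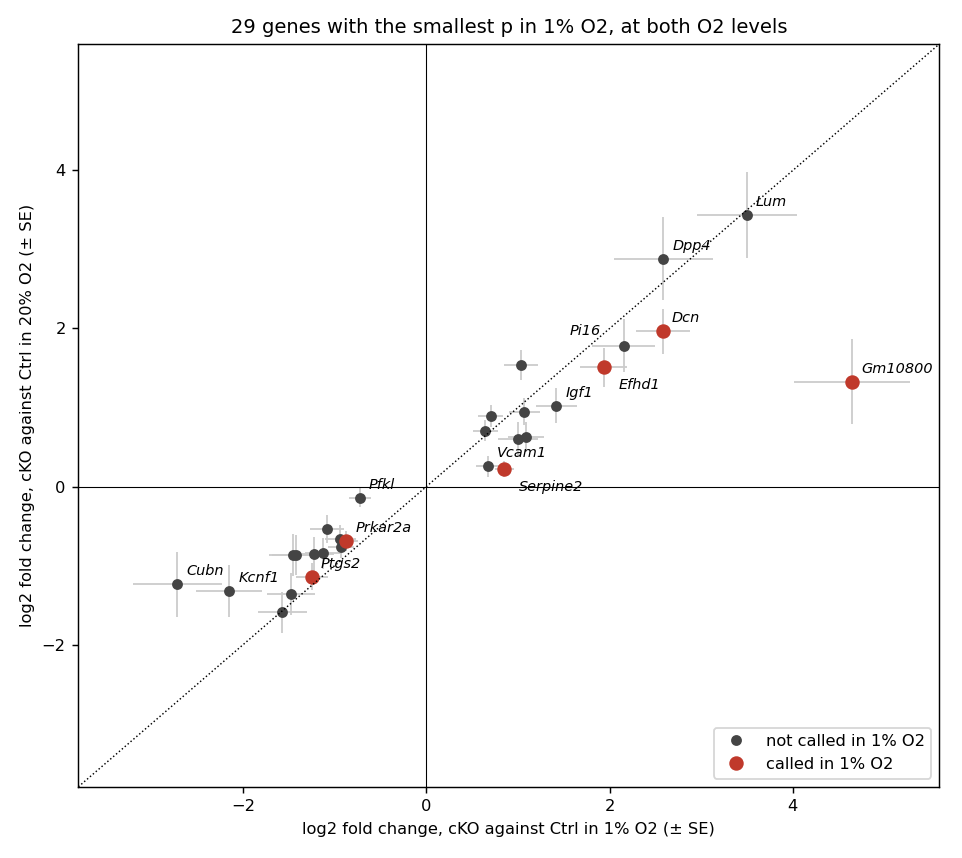
Log2 fold change of cKO against Ctrl in 1% O2 (horizontal) and 20% O2 (vertical) with SE for the 6 genes called in 1% O2 (red) and the next genes of the rule for single genes (dark grey), 29 in all without *Gm21738*, whose Ctrl counts are at the floor, and the line of equality dotted. All 29 genes have the same sign at both oxygen levels, whose cultures may share mice, and *Gm10800* lies farthest below the line.

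Ctrl TFs given Cre gesicles, vesicles that carry Cre protein, were a further group of 3 libraries in 1% O2, normalized here with all 18 libraries, so their CPM are on a slightly different scale. *Dcn* was at 164, 125 and 182 CPM, *Serpine2* at 306, 337 and 308 CPM and *Efhd1* at 1.39, 1.36 and 2.8 CPM in them. *Gm10800* was at 1.07, 0.809 and 3.25 CPM. For these 4 genes each gesicle library was below all 3 cKO values given above. *Ptgs2* was at 209, 165 and 101 CPM and *Prkar2a* at 176, 168 and 112 CPM, in both cases with gesicle replicate 3 the lowest. No test was made on this group.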

How the data were processed

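Total polyadenylated RNA of TF cultures was sequenced as paired ends. The deposited table holds estimated counts per gene that the authors made with RSEM (1.3.3) after trimming with Cutadapt and alignment to GRCm38 with STAR, per their processing notes and methods. All values are whole numbers and not normalized. The table has 18 libraries, of which the 12 of Ctrl and cKO TFs at 1% and 20% O2 (3 each) entered one fit. The labels do not say that replicates came from separate mice, so p-values measure the spread between these cultures.

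Counts were filtered with filterByExpr, scaled by TMM and tested with the quasi-likelihood F test of edgeR 4.0.16 (R 4.3.3), without a block for the replicate number and with Benjamini-Hochberg adjustment over all 15850 genes. CPM, TMM-normalized, and fold changes of cKO over Ctrl came from this fit, and the SE of a log2 fold change is its size over √F. DESeq2 1.42.0, limma 3.58.1 (voom), RLE scaling, thinned counts, offsets for GC content and length, a term for sex (by *Xist*), other filters and each library left out were alternatives. DESeq2 and the offsets without cKO replicate 1 were added after seeing the data. In a simulation of this comparison with 200 changed genes among 15662, edgeR found 53 of 100 genes at a log2 change of 1 and 88 of 100 at 2, with 12 unchanged genes called. DESeq2 found 66 and 96 of 100, with 41 unchanged genes called, and 56 with the block. The difference between oxygen levels was not simulated.

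The 28 gene lists, the marker lists and the comparison itself were chosen with earlier results of these data known. Single genes were named by a rule: those the study names, those called, the 12 higher and 12 lower uncalled genes with the smallest p among those of at least 1.5-fold whose groups did not overlap, and up to 4 of smallest p per list. The other list members given with values were chosen after their values were seen. Promoter windows are RefSeq's on GRCm38.p6. Gene positions are from GENCODE on GRCm38. No protein sequences were used here, and single values of a few list members are not reported here.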

Additional observations from a re-analysis of the deposited data

Results flagged for a closer look

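*Dhcr7*, the enzyme of the last step of cholesterol synthesis, was picked out because every cKO library was below Ctrl in 1% O2 and above Ctrl in 20% O2. In 1% O2 it was at 39.3, 31.2 and 33.2 CPM in Ctrl and 27.4, 28.3 and 30.04 CPM in cKO (log2 fold change -0.27, adjusted p in edgeR = 0.296). In 20% O2 it was at 38.0, 42.3 and 45.9 CPM in Ctrl and 46.7, 46.1 and 51.6 CPM in cKO (log2 fold change 0.20, adjusted p in edgeR = 0.451). The difference between the 2 effects was -0.47 and did not pass adjustment (adjusted p in edgeR = 0.9999).

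Counts on the transgene sequences lie outside the gene comparisons. The Cre transgene reached 3 counts and eGFP 5 counts in a cKO library in 1% O2, against 0 counts of either in each Ctrl library.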

How the results depend on the processing

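Against 6 genes called in 1% O2, edgeR called 0 with the 6 libraries of 1% O2 alone or in a test against 1.5-fold (1549 genes at the unadjusted threshold in the 12-library fit), 2 with the replicate block, 11 on autosomal genes, 12 and 16 with GC content and length offsets without and with the block, 14 on all 18 libraries, 15 with a sex term and 111 without a filter. DESeq2 called 288, 277 with the block and 133 without cKO replicate 1, and limma voom with sample weights 1274. Leaving out one library gave 0 to 6. The unadjusted count of 1549 was 1032 with the offsets, 1024 with the block added and 926 without cKO replicate 1, and 990 to 2244 with one library left out. For 20% O2 (55 called) the count was 1 against 1.5-fold, 87 on all libraries, 118 with the offsets, 128 with the offsets and block or without cKO replicate 1 of 1% O2, 281 without a filter, 432 with DESeq2, 465 with its block, 495 without cKO replicate 1, 1585 with voom, and 21 to 63 with one library left out. The interaction (0 by edgeR) gave 2 genes with DESeq2, 12 with the block and 3 without cKO replicate 1. The causes were not tested.

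Pairing by replicate number was examined only between cKO and Ctrl in 1% O2. Deviations of libraries with the same number correlated at 0.0946, 0.226 and -0.00108. The cKO replicates 1 and 2 correlated best with their own number and replicate 3 did not, so such pairing is not settled. Pairing of one genotype across the oxygen levels was not tested. The block kept *Dcn* and *Gm10800* as calls.

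Of 119 genes followed, 111 kept their sign. Those that changed it were uncalled. With one library left out *Hif1a* ranged from -0.0196 to 0.20, *Fmod* from -0.27 to 0.22, *Ptgs1* from -0.22 to 0.0397, *Bnip3* from -0.14 to 0.23, *Acta2* from -0.26 to 0.0369, *Ifit1* from -2.22 to 5.92 and *Bcl2* from -0.0848 to 0.26 (log2). *Fmod* was -0.0339 with the block in edgeR, -0.0277 in DESeq2, -0.0215 with block and offsets and -0.21 with a sex term. *Hilpda* was -0.0367 with the offsets and -0.0375 with the block added. *Bnip3* was -0.19 with the offsets, -0.20 with block and offsets, -0.35 with offsets and -0.15 in DESeq2 without cKO replicate 1, and -0.0692 with voom. Of 28 lists, 9 had a median that changed sign under some alternative. Depth limits the low genes, above all in cKO replicate 1, where 3 counts are 0.437 CPM.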
